A study of Mus musculus with 72 samples.

Results

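The genes for the protein components of the cytosolic ribosome, and the processed pseudogenes copied from them, were followed through a study of mouse gastrocnemius (WT, *Bmal1*-KO, and KO+AAV), a GFP vector experiment, and 4 other tissues. Members were chosen by symbol (*Rpl* or *Rps* followed by a digit, *Rpsa*, and *Rplp*, with the *Rps6k* kinases left out) and by a mean normalized count above 5 over the libraries of an experiment. Of 55401 genes in the tables, 393 had such a symbol, and 221 passed the minimum in at least 1 experiment, of which 92 had a protein-coding symbol and 129 a pseudogene symbol (-ps). In gastrocnemius, 87 of 93 protein-coding symbols and 52 of 300 pseudogene symbols passed. The symbol is not a perfect guide: among the 93, 7 are annotated as processed pseudogenes (*Rpl32l*, *Rpl37rt*, *Rpl6l*, *Rps12l1*, *Rps3a2*, *Rps3a3*, and *Rps4l*), *Rps19bp1* is a binding protein and no part of the ribosome, and 6 -ps symbols are annotated as protein coding.

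The mice were male. The KO is global and was bred from heterozygous parents, and WT mice were littermates. KO+AAV mice were KO mice given AAV9 with HA-tagged *Bmal1* under the muscle-specific CK6 promoter at postnatal day 5. The paper found copies of the vector in liver and heart as well, but detected no BMAL1 protein from it there. Gastrocnemius came from 6 WT, 6 KO, and 7 KO+AAV mice of 10 weeks and from 5 of each at 40 weeks, collected at ZT1, 1 hour after lights on. The GFP experiment compared 3 KO+GFP with 3 KO-Control mice at 10 weeks. White fat, liver, heart, and lung came from 4 KO and 4 KO+AAV mice aged 40 weeks, so that WT was measured in gastrocnemius alone. Libraries of 10-week muscle were sequenced at 2 sites, ICBR and Novogene, those of 40-week muscle and the GFP experiment at Novogene, and those of the other tissues at ICBR. The paper states that 4 replicates of 10-week muscle went to ICBR and does not name them. Here replicates 1 to 4 of 10-week muscle are taken as ICBR and 5 to 7 as Novogene.

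Reads counted on genes ranged from 9325122 to 41733282 per gastrocnemius library, from 6754312 to 8515400 in the GFP experiment, and from 36903079 to 50755829 in the other tissues. *Arntl*, the gene for BMAL1, had normalized counts of 402 to 634 in 10-week WT and 196 to 296 in 10-week KO muscle. KO+AAV muscle had 169 to 281, within or below the KO range, so this gene's count does not show the vector's copy. At 40 weeks it had 480 to 608 in WT and 308 to 1039 in KO muscle, where the library of replicate 2 stood above every WT library. The library labelled KO heart replicate 2 had a summed count of liver markers of 1536625 against a group median of 328, and KO white fat replicate 2 had a summed count of epididymis markers of 1652334 against a group median of 563. No 2 libraries held identical values. Normalized counts are reads divided by a size factor, so in bulk tissue fewer cells of a type and less RNA per cell cannot be told apart, and *P* values measure the spread between these samples.

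Each ribosome carries 1 copy of nearly every ribosomal protein, and the cell makes them in step with ribosomal RNA. Their mRNAs begin with a 5′ terminal oligopyrimidine tract, through which mTORC1 and LARP1 set their translation. They are short, abundant, and intron-bearing, and reverse transcription of such mRNAs over evolution left many intronless copies, the processed pseudogenes, on other chromosomes. Most of these copies are not thought to be transcribed, yet a sequencing read from the parent mRNA can match a copy as well as the parent, so reads assigned to a pseudogene may come from either. Striated muscle has a particular member, *Rpl3l*, a paralog that takes the place of *Rpl3* at the catalytic core of the large subunit.

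The pseudogenes that differed between WT and KO muscle are near-perfect copies of 2 parents, *Rps13* and *Rps15a*, both components of the small subunit. They are shown because what parts a pseudogene read from a parent read is 1 or a few bases. The 150 bases below run from position 395 to 544 of the *Rps13* mRNA (coding positions 307 to 456), and the capitals mark the bases at which either copy differs, counted from 1 at the 5′ end of the parent transcript. *Rps13* is at chr7:116331505-116334195 (minus strand, GRCm38), *Rps13-ps1* at chr8:87047689-87048226 (plus strand), and *Rps13-ps4* is a copy with 1 of the same differences. Outside the bases shown, *Rps13-ps4* also differs from *Rps13* by C194A and G209C.
Rps13: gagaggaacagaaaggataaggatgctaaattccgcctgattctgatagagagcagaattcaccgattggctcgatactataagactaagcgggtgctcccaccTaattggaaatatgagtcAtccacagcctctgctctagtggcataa
Rps13-ps1: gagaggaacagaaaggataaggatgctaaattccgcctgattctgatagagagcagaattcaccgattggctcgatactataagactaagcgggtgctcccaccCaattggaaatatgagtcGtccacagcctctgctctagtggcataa
Rps13-ps4: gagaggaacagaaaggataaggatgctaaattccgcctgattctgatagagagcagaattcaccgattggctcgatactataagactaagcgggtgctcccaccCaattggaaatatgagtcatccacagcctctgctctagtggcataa
*Rps13-ps1* differed from *Rps13* at 2 of 522 aligned bases, T499C and A517G, and was identical to it over a run of 436 bases. T499C was found in 5 of the 7 aligned *Rps13* pseudogenes and A517G in 3.

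For *Rps15a* (chr7:118104372-118116188, minus strand), 150 bases of positions 306 to 455 of the mRNA (coding positions 95 to 244) are shown with 5 copies. The copies are *Rps15a-ps3* (chr4:150847113-150847507), *Rps15a-ps4* (chr4:132219988-132220489), *Rps15a-ps5* (chr5:105797321-105797713), *Rps15a-ps6* (chr11:6172644-6173036), and *Rps15a-ps7* (chr2:152185291-152185682). Capitals again mark the differing bases.
Rps15a: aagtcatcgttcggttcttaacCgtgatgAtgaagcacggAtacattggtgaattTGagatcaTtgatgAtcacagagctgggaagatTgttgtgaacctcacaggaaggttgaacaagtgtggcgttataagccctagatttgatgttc
Rps15a-ps3: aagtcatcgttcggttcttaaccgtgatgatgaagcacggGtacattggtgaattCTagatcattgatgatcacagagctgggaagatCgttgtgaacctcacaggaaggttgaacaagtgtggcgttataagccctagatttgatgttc
Rps15a-ps4: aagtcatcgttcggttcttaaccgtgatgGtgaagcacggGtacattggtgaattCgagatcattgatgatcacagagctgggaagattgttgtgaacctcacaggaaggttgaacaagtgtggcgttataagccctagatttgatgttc
Rps15a-ps5: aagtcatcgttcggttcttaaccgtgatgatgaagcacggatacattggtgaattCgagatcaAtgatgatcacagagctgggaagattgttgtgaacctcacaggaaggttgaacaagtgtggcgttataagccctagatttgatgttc
Rps15a-ps6: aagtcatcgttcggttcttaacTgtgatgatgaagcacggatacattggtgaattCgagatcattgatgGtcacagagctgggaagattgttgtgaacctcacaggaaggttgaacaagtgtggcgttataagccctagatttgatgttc
Rps15a-ps7: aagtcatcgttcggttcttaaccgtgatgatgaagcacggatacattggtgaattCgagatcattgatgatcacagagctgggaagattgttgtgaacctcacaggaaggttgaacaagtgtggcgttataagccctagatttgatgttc
All 5 copies share T361C, and in this window it is the single difference between *Rps15a-ps7* and its parent. T361C was found in 7 of the 8 *Rps15a* pseudogenes, the exception being *Rps15a-ps8*.

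At 10 weeks, 5 of the 52 pseudogenes tested differed between WT and KO muscle, all of them lower in WT, and each was a copy of *Rps13* or *Rps15a*. Over all genes, 8% were called in this comparison, 3.74% as lower in WT (limma on log2 of the normalized count plus 1, Benjamini-Hochberg adjusted *P* under 0.05). *Rps13-ps1* had normalized counts from 6.06 to 28.0 (median 23.3) in WT, from 281 to 430 (median 329) in KO, and from 202 to 370 (median 329) in KO+AAV muscle. The WT libraries lay far below every KO library, and the KO+AAV libraries lay among those of the KO. The fold change of WT over KO was -4.16 on the log2 scale (SE 0.28, adjusted *P* = 5.73e-12), and it was -3.85 in the ICBR and -4.47 in the Novogene libraries fitted alone.

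*Rps15a-ps7* followed the same pattern, with 0 to 7.0 in WT, 47.1 to 88.6 in KO, and 22.4 to 85.0 in KO+AAV muscle. WT over KO was -3.83 on the log2 scale (SE 0.38, adjusted *P* = 1.40e-08). *Rps15a-ps3* had at most 4.02 in WT and at least 13.5 in KO muscle (log2 fold change -2.59, SE 0.39, adjusted *P* = 2.26e-05). The groups did not overlap for either gene. *Rps15a-ps6* and *Rps15a-ps5* were near the minimum, with 29 and 13 reads over the 6 WT libraries against 105 and 137 over the 6 KO libraries, and log2 fold changes of -1.89 (adjusted *P* = 0.00689) and -2.14 (adjusted *P* = 0.0145). In the Novogene libraries alone *Rps15a-ps6* did not pass (-2.22, adjusted *P* = 0.19) and *Rps15a-ps5* was below the minimum and was not tested, and *Rps15a-ps5* did not pass with no site term (adjusted *P* = 0.064). The 4 *Rps15a* copies had 10-week WT means of 1.33 to 4.52 and reached the minimum of 5 through the KO and KO+AAV libraries, so the minimum favored copies that are lower in WT, and the shared direction is in part set by it. With no minimum the same 5 were called. Groups without overlap were found for 6.06% of all genes and for 4 of the 5 pseudogenes, *Rps15a-ps6* being the exception.

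**Figure D1:**
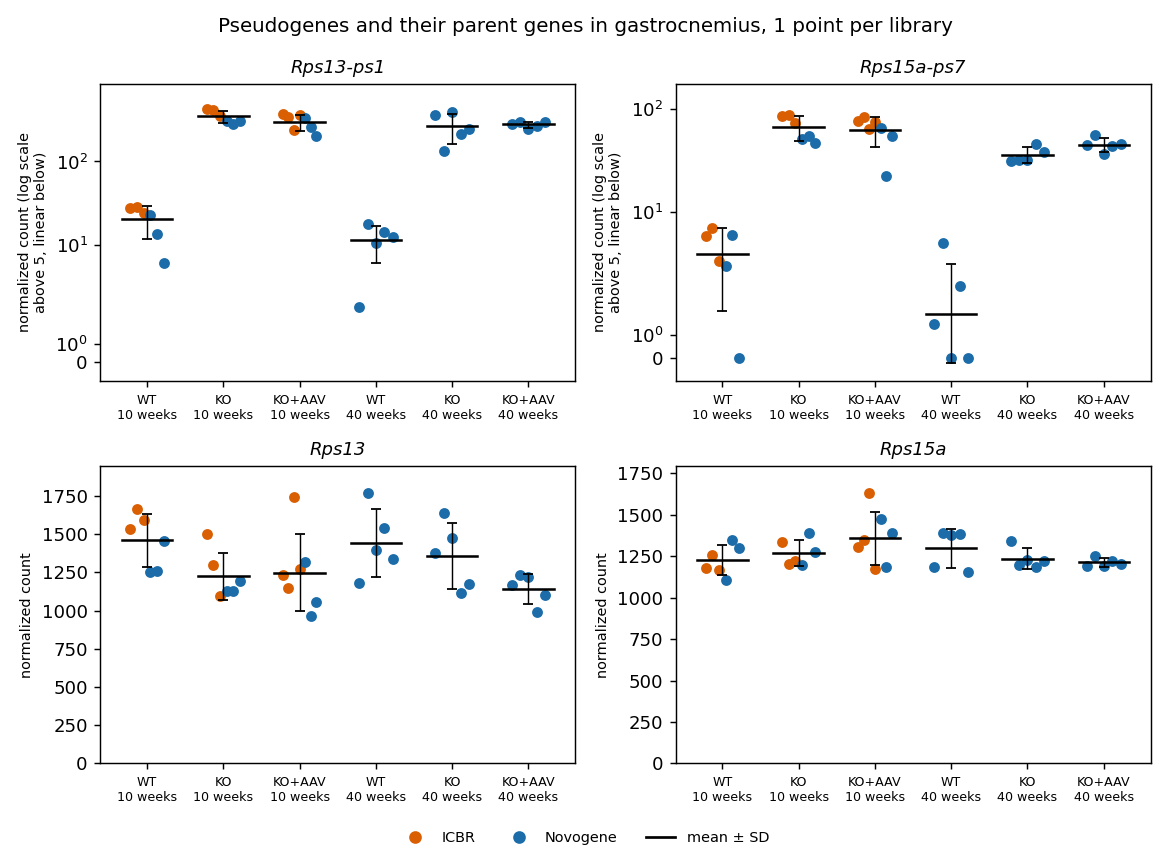
Normalized counts of *Rps13-ps1*, *Rps15a-ps7*, and their parents in the 34 gastrocnemius libraries (1 point per library, colored by sequencing site, with mean and SD; the pseudogene axes are logarithmic above 5). The 11 WT libraries stood below every KO and KO+AAV library for both pseudogenes, with at most 28.0 for *Rps13-ps1* against at least 134, while the parents' groups overlapped.

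At 40 weeks the same comparison called 16 of the 139 members against 23.5% of all genes (12% higher and 11.5% lower in WT), among them 8 pseudogenes. Groups without overlap were found for 6 members, 3 of each class, and for 13.6% of all genes. *Rps13-ps1* had 2.97, 17.5, 10.6, 14.1, and 12.5 in the WT, 359, 134, 388, 214, and 244 in the KO, and 281, 300.3, 247, 264, and 298 in the KO+AAV libraries. WT stood below the other groups without overlap, by -4.49 on the log2 scale against KO (SE 0.31, adjusted *P* = 5.15e-12) and -4.64 against KO+AAV (adjusted *P* = 5.21e-12). *Rps15a-ps7* (-4.01), *Rps15a-ps3* (-2.66), and *Rps15a-ps6* (-1.72, adjusted *P* = 0.0125) were also lower in WT than in KO muscle, the last of these not without WT replicate 1 (adjusted *P* = 0.059) or 4 (0.057), nor with edgeR (0.063). With WT and KO libraries fitted alone, 5 of the 16 members passed, *Rps13-ps1*, *Rps15a-ps7*, and *Rps15a-ps3* among the pseudogenes and *Rplp0* and *Rpl3* among the protein-coding members. *Rps15a-ps5*, with 2 reads in all in WT and 12 in KO muscle, did not pass (-1.45, adjusted *P* = 0.092).

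Neither parent was called. *Rps13* had 1251 to 1665 (median 1491) in 10-week WT and 1094 to 1503 (median 1160) in KO muscle, and WT over KO was 0.25 on the log2 scale (SE 0.11, adjusted *P* = 0.16). *Rps15a* had 1107 to 1347 in WT and 1197 to 1393 in KO muscle (-0.05, SE 0.07, adjusted *P* = 0.78). Both parents' groups overlapped at both ages. The difference was therefore also measured as a share, the reads on the pseudogene as a percentage of the reads on pseudogene and parent, which does not depend on the size factors.

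*Rps13-ps1* took 0.25% to 1.79% (median 0.983%) of the *Rps13* and *Rps13-ps1* reads in the 11 WT libraries, and 7.58% to 37.5% (median 22.7%) in the 61 libraries of KO mice of every treatment and tissue. The 8 *Rps15a* pseudogenes together took 0.125% to 1.74% of their family's reads in the WT and 2.71% to 12.9% (median 10.5%) in the other libraries. No library of a KO mouse lay within the WT range for either family. At 10 weeks the mean share of *Rps13-ps1* was 1.37% ± 0.537 (SD, n = 6) in WT and 22.1% ± 1.78 (n = 6) in KO muscle, a difference of -20.7 percentage points (*P* = 0.005 by an exact permutation test within sites, two-sided, the smallest that 400 arrangements allow, adjusted over 10 tests 0.0159). At 40 weeks the difference was -15.7 points (exact *P* = 0.00794, the smallest that 252 arrangements allow, adjusted *P* = 0.0159). The *Rps15a* share differed by -7.0 and -4.70 points, with the same *P* values. These shares are built from the reads of the comparison above, in the same libraries, so their tests are not independent of it.

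When parent and pseudogene were summed, no difference passed after adjustment. The log2 of the summed normalized count of *Rps13* and *Rps13-ps1* differed by -0.09 at 10 weeks (exact permutation test, two-sided, *P* = 0.235, adjusted 0.294) and by -0.16 at 40 weeks (exact *P* = 0.294, adjusted 0.326). For *Rps15a* and its 8 copies it differed by -0.16 at 10 weeks (exact *P* = 0.03, adjusted 0.05) and by 0.00 at 40 weeks (exact *P* = 0.976).

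**Figure D2:**
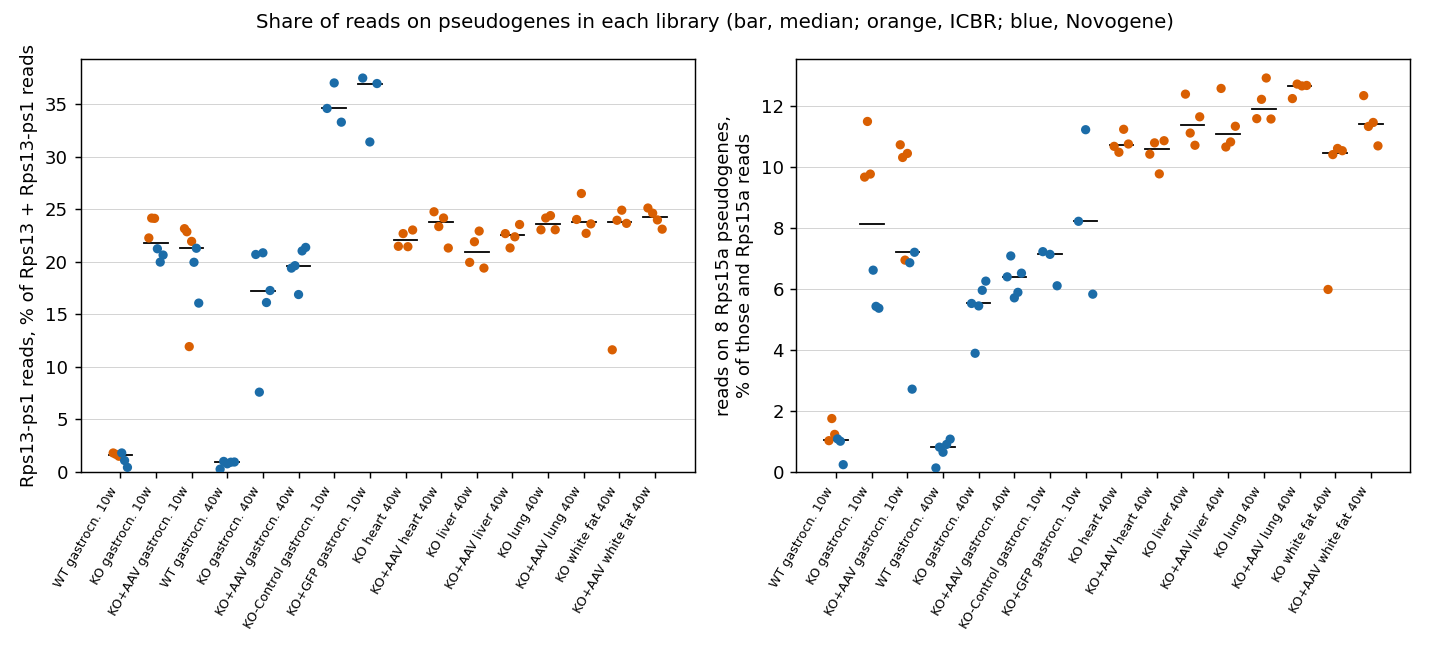
Share of reads on *Rps13-ps1* (left) and on 8 *Rps15a* pseudogenes (right), as a percentage of the reads on copy and parent, in each of the 72 libraries by group (1 point per library, colored by site, bar at the median). WT libraries, all of gastrocnemius, lay at or below 1.79% and 1.74%. Every library of a KO mouse lay at or above 7.58% and 2.71%, in muscle and in the 4 other tissues, which had no WT libraries.

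The share lay above the range of WT muscle in every tissue of the KO mice. WT was measured in gastrocnemius alone, so the other tissues had no WT libraries to be compared with. Group medians of the *Rps13-ps1* share were 22.1% and 23.7% in KO and KO+AAV heart, 20.9% and 22.5% in liver, 23.6% and 23.8% in lung, and 23.8% and 24.3% in white fat. In the GFP experiment the *Rps13-ps1* share was 33.3% to 37.0% in KO-Control and 31.4% to 37.5% in KO+GFP muscle. The 10-week KO muscle libraries of the main experiment from the same site, Novogene, had 19.96% to 21.2%. The *Rps15a* share overlapped, with 6.10% to 7.22% in KO-Control and 5.36% to 6.61% in these KO libraries. The GFP table was normalized separately, but the share does not depend on the size factors. Why the *Rps13-ps1* share differed between the experiments was not tested. The site mattered within a genotype: in 10-week KO muscle the *Rps15a* share was 9.66% to 11.5% in the ICBR and 5.36% to 6.61% in the Novogene libraries.

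In 3 libraries of KO mice both shares lay well below those of the other libraries of their group and site, though above the WT range. KO gastrocnemius replicate 2 at 40 weeks had 7.58% for *Rps13-ps1* against 16.1% to 20.8% in the other 4 and 3.88% for the *Rps15a* copies against 5.44% to 6.25%, and it was also the library with the *Arntl* count of 1039. KO+AAV gastrocnemius replicate 3 at 10 weeks had 11.9% against 21.9% to 23.1% in the other ICBR libraries of its group, and 6.94% against 10.3% to 10.7%, whereas the Novogene libraries of the group had 2.71% to 7.20% for the *Rps15a* copies. The lowest of these Novogene values also lay apart, since their median was 6.85%. For *Rps13-ps1* the lowest share of these Novogene libraries was 16.1%, beside a median of 19.9% and a highest value of 21.3%. KO white fat replicate 1 had 11.6% against 23.6% to 24.9%, and 5.98% against 10.4% to 10.6%. Why these libraries stood apart was not tested. Without KO replicate 2 the 40-week fold change of *Rps13-ps1* was -4.71, and without KO+AAV replicate 3 the 10-week change of WT over KO+AAV was -3.98 against -3.89 with it.

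The 5 pseudogenes have 2 parents, and 4 of them are copies of *Rps15a*. *Arntl* lies at chr7:113207465-113314126, *Rps13* 3.017 Mb and *Rps15a* 4.79 Mb from it, while the 5 copies lie on chromosomes 2, 4, 5, 8, and 11. Among the 52 pseudogenes tested, these 5 were the ones with a parent within 10 Mb of *Arntl*, a distance chosen after the values were seen. The split of calls given next follows from that choice and is no test of distance. Other copies of these parents were below the minimum and are not among the 52. At 10 weeks all 5 were called, with a median log2 fold change of -2.59, and the 47 with a parent elsewhere had 0 calls (median -0.06, range -0.79 to 0.63). At 40 weeks 4 of the 5 and 4 of the 47 were called. Of all genes within 10 Mb of *Arntl*, 13.3% (21 of 158) were called at 10 weeks and 29.7% (47 of 158) at 40 weeks, against 8.0% and 23.5% on other chromosomes and 7.23% and 22.5% farther out on chromosome 7.

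**Figure D3:**
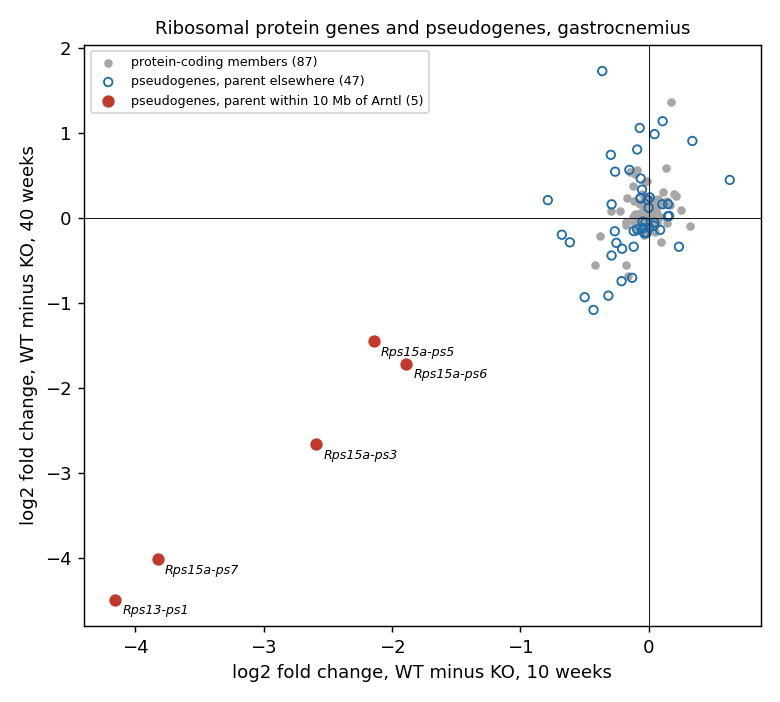
Log2 fold change of WT over KO gastrocnemius at 10 weeks (x) and 40 weeks (y) for the 87 protein-coding members (gray) and 52 pseudogenes (blue circles, parent elsewhere; red, parent within 10 Mb of *Arntl*). The 5 red points lay between -4.16 and -1.89 at 10 weeks and between -4.49 and -1.45 at 40 weeks, apart from the rest. The distance that sets the colors was chosen after the values were seen.

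KO mice differ from WT littermates in the targeted allele and in whatever sequence beside it was inherited with it, and the 2 cannot be told apart by comparing WT with KO mice. The KO line was a numbered stock of The Jackson Laboratory, and the strain in which its allele was made is not spelled out in the sources used here. How far any such segment reaches was not measured, and the sequence of the reads was not analysed here.

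None of the 5 pseudogenes was called between KO+AAV and KO muscle at 10 weeks (log2 fold changes -0.27 to 0.23, with 0.204% of all genes called) or 40 weeks (-0.08 to 0.32, with 0.259%). *Rps13-ps1* differed by -0.27 (SE 0.27, adjusted *P* = 0.83) and 0.15 (SE 0.31, adjusted *P* = 0.93) at the 2 ages.

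Other copies of the same parents were not all lower in WT. *Rps15a-ps4*, which also carries T361C, took 0% to 0.404% of the *Rps15a* and *Rps15a-ps4* reads in WT and 0% to 0.693% in the other libraries, and *Rps15a-ps1* and *Rps15a-ps2* had 0 reads in gastrocnemius. *Rps15a-ps8*, without T361C, had 0 reads in the 11 WT libraries and 17 over the 6 KO libraries at 10 weeks. It also had 0 reads in every library of the GFP experiment, all from KO mice and with fewer reads per library. In gastrocnemius *Rps15a-ps8* was below the minimum and was not tested. *Rps13-ps2*, identical to its parent over 453 bases and on chromosome 7 itself (chr7:88530446-88530898), ran the other way, with 94 reads in 10-week WT and 22 in KO muscle and a share of 0.104% to 0.850% in WT against 0% to 0.703% in the libraries of KO mice. It was below the minimum and was not tested.

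Across all 52 pseudogenes tested, identity to the parent over the aligned bases ran from 87.2% to 100% (median 99.4%), and 11 were identical. None lay on the chromosome of its parent. The correlation of a copy with its parent after removal of group and site means had a median of 0.33 (range -0.50 to 0.73, over 34 libraries that share depth and size factors), 0.14 for *Rps13-ps1* and 0.21 for *Rps15a-ps7*. Of all reads on members, pseudogenes took a median of 1.97% in WT and 2.21% in KO muscle at 10 weeks, and 1.94% and 2.21% at 40 weeks.

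The other 4 pseudogenes called at 40 weeks had parents elsewhere. Among them, *Rps10-ps1* (log2 fold change 0.98, SE 0.30, adjusted *P* = 0.0157) and *Rpl23a-ps3* (0.80, SE 0.25, adjusted *P* = 0.0193) were higher in WT, and *Rps12-ps3* (-0.37, SE 0.13, adjusted *P* = 0.0350) was lower. For each of these the WT and KO libraries overlapped, and none of them passed with these 2 groups fitted alone (adjusted *P* = 0.068 to 0.16). *Rps10-ps1* did not pass without WT replicate 4 (0.80, adjusted *P* = 0.063), *Rpl23a-ps3* without any 1 of 5 libraries (WT 2, 3, and 4 and KO 3 and 5, adjusted *P* up to 0.079), nor *Rps12-ps3* without any 1 of 6 (WT 1, 2, and 4 and KO 2, 4, and 5, up to 0.11). Their parents were not called (*Rps10* 1.36 with adjusted *P* = 0.059, *Rpl23a* -0.06, and *Rps12* -0.05). *Rps12-ps3* is identical to *Rps12* over 494 bases, so its reads cannot be told apart from those of its parent by sequence. In KO+AAV muscle it was called against WT as well (-0.41, adjusted *P* = 0.0275), though not without any 1 of WT 1, 2, or 4 or KO+AAV 3 or 5 (up to 0.092), nor with no site term (0.24).

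No protein-coding member was called between WT and KO muscle at 10 weeks with limma, although 6 of the 87 had an unadjusted *P* under 0.05. Their fold changes ran from -0.42 to 0.32 with a median of -0.02, beside -0.01 over all genes. Against KO+AAV, 5.15% of all genes were called (2.21% lower in WT) and 7 members, all lower in WT, and 1 protein-coding member, *Rps12* of the small subunit, was lower in WT (-0.36, SE 0.09, adjusted *P* = 0.0161). *Rps12* had 877 to 1283 (median 1122) in WT and 938 to 1709 (median 1514) in KO+AAV libraries, which overlapped, and with each site fitted alone it did not pass (adjusted *P* = 0.093 and 0.54). The same comparison called *Rps10-ps2* lower in WT (-0.29, adjusted *P* = 0.0419) beside the 5 copies of *Rps13* and *Rps15a*. The comparisons of WT with KO and with KO+AAV share the WT libraries.

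At 40 weeks 8 of the 87 protein-coding members were called between WT and KO, 6 higher and 2 lower in WT, a smaller share than the 23.5% of all genes (12% higher and 11.5% lower). *Rplp0*, the stalk protein that anchors the P1 and P2 dimers, had 8555, 9234, 9139.5, 9950.1, and 9109.6 in WT, 15085, 16845, 15341, 10919.8, and 10713 in KO, and 10682, 10217, 11677, 10195, and 11165 in KO+AAV muscle. WT libraries lay below both other groups, and KO libraries 1 to 3 stood above all KO+AAV libraries. The log2 fold change of WT over KO was -0.56 (SE 0.10, adjusted *P* = 1.05e-04), and that of KO+AAV over KO was -0.33 (SE 0.10, adjusted *P* = 0.20), which did not pass. *Rpl3*, a core protein of the large subunit, had 455 to 596 in WT, 630.2 to 1103 in KO, and 703 to 1093 in KO+AAV libraries (WT over KO -0.68, SE 0.22, adjusted *P* = 0.0216), again with WT below both groups. Without any 1 of 3 libraries (WT replicate 1, KO replicate 2, or KO replicate 3) *Rpl3* did not pass (-0.62 to -0.59, adjusted *P* = 0.057 to 0.065).

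The 6 members that were higher in WT at 40 weeks were *Rps29* (log2 fold change 0.56), *Rps27* (0.53), and *Rps21* (0.37) of the small subunit and *Rpl38* (0.52), *Rpl37a* (0.43), and *Rpl14* (0.30) of the large subunit. *Rpl38* had 397, 773.2, 773.4, 794, and 497 in WT, 494, 389, 439.9, 432, and 428 in KO, and 381, 453, 370.5, 458, and 469.8 in KO+AAV libraries. *Rps27* had 858, 1597, 1612, 1639, and 1025 in WT and 739 to 1187 in KO libraries. WT replicates 2, 3, and 4 were high for both genes, and replicates 1 and 5 lay within or near the range of the KO. Of these 6, *Rps21* and *Rps29* did not pass without any 1 of WT replicates 2, 3, and 4 (adjusted *P* = 0.057 to 0.099), *Rps21* also without KO replicate 4 or 5 (0.068 and 0.062), and *Rpl14* without KO replicate 4 (0.051). None of the 6 passed with WT and KO libraries fitted alone (adjusted *P* = 0.070 to 0.17), and with no site term *Rpl37a* alone of the 6 did. The mRNAs of the 6 were 345 to 1009 bases long, beside 1351 and 1358 for *Rpl3* and *Rplp0* and a median of 756 over 82 members with a length, and over these 82 the Spearman correlation of length with fold change was -0.26. The 211 non-member genes with mRNAs under 600 bases had a median fold change of 0.03. The part of mRNA length in the result was not tested.

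**Figure D4:**
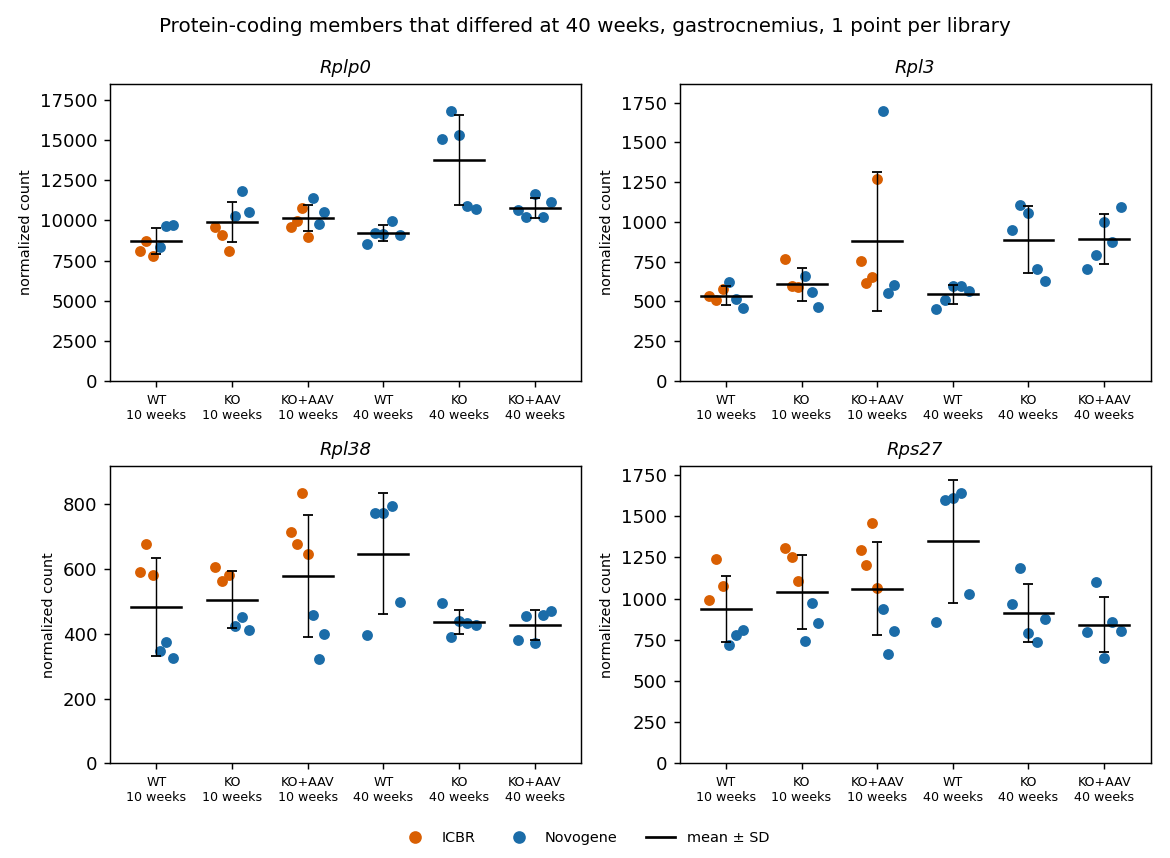
Normalized counts of *Rplp0*, *Rpl3*, *Rpl38*, and *Rps27* in the 34 gastrocnemius libraries (1 point per library, colored by site, with mean and SD). At 40 weeks WT libraries lay below all KO libraries for *Rplp0* and *Rpl3*, and WT libraries split in *Rpl38* between 397 and 497 and 773 to 794.

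Against KO+AAV at 40 weeks, 12.5% of all genes (6.05% higher and 6.41% lower in WT) and 16 of 139 members were called, 11 of them protein coding. *Rpl37a* (0.52), *Rps21* (0.52), *Rps29* (0.74), *Rps27* (0.65), *Rpl38* (0.55), and *Rpl14* (0.33) were again higher in WT, joined by *Rpl3l* (0.35), *Rpl9* (0.28), *Rplp1* (0.40), and *Rpl36* (0.36), and *Rpl3* was lower (-0.70, SE 0.22, adjusted *P* = 0.0293). Without KO+AAV replicate 3, 10 members were called. *Rpl3* did not pass without WT replicate 1 or 2 or KO+AAV replicate 3 or 5, and *Rpl36* without any 1 of WT 2 to 4 and KO+AAV 3 to 5 (adjusted *P* = 0.053 to 0.11 for both). *Rplp1* did not pass without WT 2, 3, or 4 or KO+AAV 3, *Rpl9* without WT 2 or 4 or KO+AAV 3, *Rpl14* without KO+AAV 3, and *Rpl3l* without KO+AAV 2 (0.051 to 0.091). With no site term *Rps29*, *Rpl38*, *Rpl14*, *Rplp1*, *Rpl9*, and *Rpl36* did not pass (0.052 to 0.21). Groups without overlap were found for 11.7% of all genes and for 7 of the 87 protein-coding members.

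*Rpl3* and *Rpl3l* were compared per kb of mRNA, since levels of different genes can be set side by side only per length. *Rpl3l* made up 91.9% to 94.7% of the pair in 10-week WT and 92.1% to 93.8% in 40-week WT muscle. In 40-week KO muscle it was 86.4%, 81.9%, 83.8%, 88.7%, and 91.4%, and in KO+AAV muscle 90.01%, 84.7%, 83.8%, 86.8%, and 83.0%, so that every WT library lay above both other groups. The difference of WT and KO was 6.19 percentage points at 40 weeks (exact permutation test, two-sided, *P* = 0.00794, the smallest possible, adjusted over 10 tests 0.0159). At 10 weeks it was 1.72 points with overlap (exact *P* = 0.035, adjusted *P* = 0.05). This share is built from the *Rpl3* and *Rpl3l* counts of the same libraries, so its tests are not independent of the *Rpl3* result above.

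Among the 10-week KO+AAV libraries, replicates 4 and 5 had an *Rpl3l* share of 82.5% and 75.5%, where the other 5 had 91.6% to 92.9%. Their *Rpl3* counts were 1267 and 1700 against 552 to 751 in the other 5, and their *Rpl3l* counts were 6083 and 5337. The highest summed fibroblast markers of the group (86918 against a median of 18317) were in replicate 4 and the highest macrophage markers (8535 against a median of 1480) in replicate 5, with 6 of 6 and 10 of 10 markers detected. Their part in the *Rpl3* level was not tested. In 40-week KO muscle, the highest summed slow-fiber markers (174603 against a median of 36048, all 8 detected) were in replicate 3, 1 of the libraries with high *Rplp0* and *Rpl3*, and their part was not tested either.

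**Figure D5:**
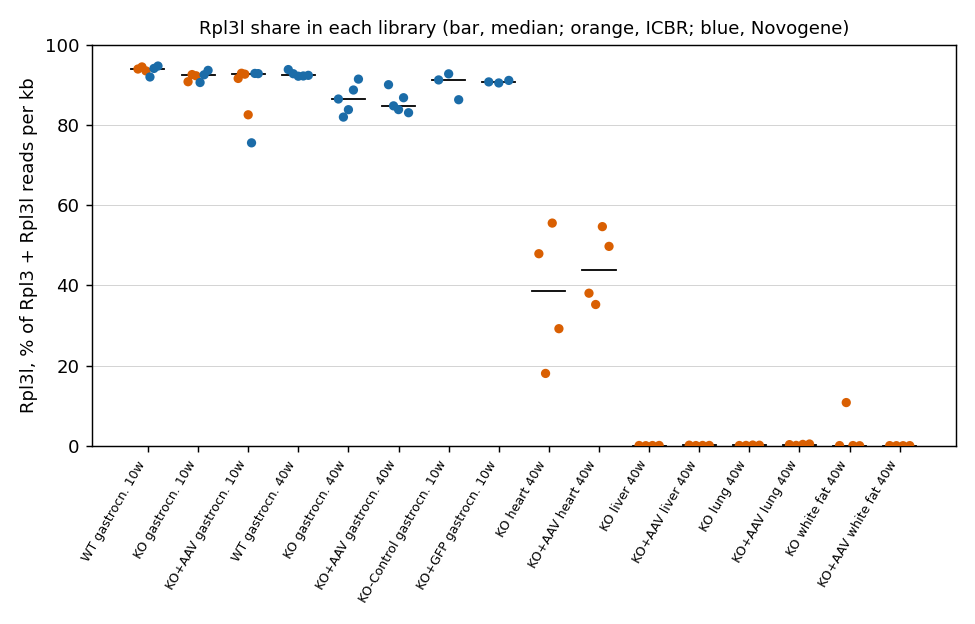
*Rpl3l* as a percentage of *Rpl3* and *Rpl3l* reads per kb in each of the 72 libraries by group (1 point per library, colored by site, bar at the median). Gastrocnemius lay between 75.5% and 94.7%, heart between 18.0% and 55.5%, and liver and lung at or below 0.437%, while KO white fat replicate 2 had 10.8%.

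Heart held both paralogs. *Rpl3l* was 47.9%, 18.0%, 55.5%, and 29.2% of the pair in KO and 38.0%, 35.2%, 54.6%, and 49.7% in KO+AAV heart, the lowest value being that of KO replicate 2 with the liver markers. In liver it was 0.0165% to 0.144% and in lung 0.0630% to 0.437%. White fat had 0.0107% to 0.0492% apart from KO replicate 2, the library with epididymis markers, which had 10.8% and an *Rpl3l* count of 4496 against 2.16 to 11.1 in the other KO libraries. The part of the liver or epididymis markers in these *Rpl3l* shares was not tested. Of the other paralog pairs, *Rpl22l1* was 10.5% to 31.4% of its pair with *Rpl22* in gastrocnemius of the 3 groups, where the gene was lower in Novogene than in ICBR libraries (-1.03, adjusted *P* = 7.80e-07), and *Rps27l* was 8.87% to 12.2% of its pair with *Rps27* in lung and 37.0% to 41.7% in liver. Neither of the 2 was called between WT and KO muscle.

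No member was called for the vector with *Bmal1*. KO+AAV against KO muscle called 0 of 139 members at both ages, where 0.204% of all genes were called at 10 weeks and 0.259% at 40 weeks, and neither edgeR nor DESeq2 called any. At an unadjusted *P* under 0.05 there were 11 members at 10 weeks, all protein coding, and 6 at 40 weeks. At 10 weeks 77 of the 87 protein-coding members had a fold change above 0 (median 0.12, all genes 0.01). Summed fibroblast markers were 14095 to 86918 (median 18317) in these KO+AAV and 5970 to 19866 (median 9421) in the KO libraries, and summed macrophage markers 899.7 to 8535 (median 1480) and 429 to 1349 (median 811), with all 6 and all 10 markers detected, and their part in the shift was not tested. At 40 weeks 14 of 87 had a fold change above 0 (median -0.06, all genes 0.02). The difference between the ages was tested directly and called no member, against 0.00617% of all genes, with 15 members under an unadjusted *P* of 0.05.

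None was called for the GFP vector either. KO+GFP against KO-Control muscle called 0 of 130 members with limma, edgeR, or DESeq2, against 3.09% of all genes. An unadjusted *P* under 0.05 was found for 3, among them *Rpl35a-ps2* (0.97, adjusted *P* = 0.22) and *Rpl34* (0.23, adjusted *P* = 0.26). Groups without overlap were found for 10 members and for 23.5% of all genes. With 3 mice per group the medians were -0.02 for the 86 protein-coding members and -0.04 for the 44 pseudogenes.

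Between 10 and 40 weeks few members changed, and the calls rested on the site term, since all 40-week libraries came from Novogene. In WT muscle, where 0.148% of all genes were called (0.111% higher at 40 weeks), 3 members rose, *Rpl38* (0.79, SE 0.15, adjusted *P* = 0.0120), *Rps27* (0.78, adjusted *P* = 0.0354), and *Rps21* (0.60, adjusted *P* = 0.0354). The mRNAs of these 3 were 345 to 394 bases long, beside a median of 756 over 82 members. Over the 82 the Spearman correlation of length with fold change was -0.41, and the part of length was not tested. None of the 3 passed without WT 40-week replicate 2, 3, or 4, nor in the Novogene libraries alone. In KO muscle, with 8.31% of all genes called (4.05% higher and 4.26% lower), 4 members were called, and the protein-coding ones, *Rps20* (0.49), *Rplp0* (0.37), and *Rpl19* (0.32), rose. For *Rpl19* the unadjusted group means were 572 and 566, so its call came from the adjustment for site. Without KO 40-week replicate 2 none of the 4 passed (adjusted *P* = 0.081 to 0.18), nor did *Rps20* without replicate 1, or *Rplp0* and *Rpl19* without replicate 1 or 3. In KO+AAV muscle, with 8.53% of all genes called (3.86% lower), *Rps2* fell by 0.40, *Rpl3l* by 0.33, and *Rpsa* by 0.29. *Rps2* had 8065 to 10522 at 10 weeks and 5773 to 7394 at 40 weeks, without overlap. *Rpl3l* did not pass without KO+AAV 40-week replicate 2, 3, or 5, nor *Rpsa* without any 1 of the 5 (adjusted *P* up to 0.16). No age call of any group held in the Novogene libraries alone. The test of whether the WT and KO difference itself changed with age called 0 members, against 0.37% of all genes, with 13 under an unadjusted *P* of 0.05.

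Many members differed between sequencing sites. Of all genes 23% differed between Novogene and ICBR libraries (15.8% higher and 7.22% lower in Novogene), and of the members 81 of 139 did, with 46 of the 87 protein-coding members (4 higher and 42 lower in Novogene) and 35 of the 52 pseudogenes (8 higher and 27 lower). The median log2 fold change was -0.16 and -0.68, beside -0.02 over all genes. *Rps29* (-1.24, SE 0.13, adjusted *P* = 4.90e-10), *Rpl38* (-0.72), and *Rps27* (-0.56) were lower at Novogene. These 3 protein-coding genes were also among those higher in WT than in KO muscle at 40 weeks, although all 40-week libraries came from 1 site. What differed between the sites was not tested.

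In the other tissues no member was called between KO+AAV and KO. Of all genes 0.0237% were called in lung and 0% in heart, liver, and white fat, and of the members 0 of 216, 0 of 190, 0 of 197, and 0 of 208 with limma, with no call by edgeR or DESeq2 and none when any 1 library was left out. An unadjusted *P* under 0.05 was found for 5 members in lung, 2 in heart, 3 in liver, and 0 in white fat. In lung these were *Rpl21-ps11* (1.20, adjusted *P* = 0.21), *Rps12-ps10*, *Rpl7-ps7*, *Rpl3l* (1.21, adjusted *P* = 0.38), and *Rpl13a*. In heart 4 of the 91 protein-coding members had a fold change above 0 (median -0.18, all genes -0.01), and the KO group held the library with liver markers, whose part was not tested. Groups without overlap were found for 13 members in heart (1.85% of all genes), 4 in lung (6.77%), 1 in liver (2.13%), and 0 in white fat (1.31%).

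Protein-coding members took 0.950% to 1.37% of the reads of a gastrocnemius library of the main experiment, 1.17% to 1.53% in heart, 1.71% to 2.24% in liver, 2.53% to 2.85% in lung, and 1.79% to 3.56% in white fat. Per kb, *Rps2* (8487), *Rplp1* (8289), and *Rplp0* (7613) were the most abundant in gastrocnemius. *Rplp1*, a small acidic stalk protein, led in heart (25043), liver (40970), lung (58557), and white fat (51583). *Rpl3l* was rank 8 of 82 in gastrocnemius and the last of 84 in liver and lung, and *Rpl3* was rank 77 in gastrocnemius. The levels of tissues were normalized separately.

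Among the lowest values, *Rps10*, an essential protein of the small subunit, was last of 82 in gastrocnemius with 10.8 per kb and normalized counts of 0 to 15.5, while *Rps10-ps2*, 99.0% identical with 5 substitutions, had 316 to 541. *Rpl13a* was next with 19.3 per kb, and *Rps19bp1* followed with 103. *Rpl24* was last of 84 in heart with 9.92. How the counting treated reads that match several places is not given in the sources used here, so the values of parents and of near-identical copies are uncertain apart from each other.

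Factors that work with the ribosome were counted from 4 lists. Of 24 translation factors and other mRNAs with a terminal oligopyrimidine tract, 1 was higher and 5 were lower in WT than in KO muscle at 40 weeks, where 23.5% of all genes were called. *Eef1a1*, the elongation factor (-0.89, SE 0.20, adjusted *P* = 0.00120), *Hnrnpa1* (-0.58), *Eif4a2* (-0.39), *Eif3l* (-0.27), and *Eif2s3x* (-0.26) were lower and the small nucleolar host RNA *Snhg8* (1.01) was higher. Of 45 ribosome biogenesis genes 1 was higher and 4 were lower, with *Sbds* (-0.69) the most changed. Of 23 genes of the mTORC1 and S6 kinase axis 3 were higher and 5 lower, among them *Eif4ebp2* (0.67), an inhibitor of cap-dependent translation, *Larp1* (0.44), *Mtor* (-0.41), and *Myc* (-1.17). Of 7 translation factors that are regulated in muscle, *Eif4ebp2* alone was called. At 10 weeks the lists had 1 of 24 (*Eef1b2*, -0.29), 1 of 45 (*Polr1a*, the large subunit of RNA polymerase I, -0.46), 2 of 23 (*Myc*, -1.51, and *Rps6ka2*, -0.35), and 0 of 7, all lower in WT, where 8% of all genes were called.

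Promoters were searched for the canonical E-box CACGTG, the letters that CLOCK and BMAL1 bind, which reads the same on both strands. Of 67 members with a RefSeq promoter (250 bases before to 50 after the start, GRCm38.p6), 6 held it (8.96%: *Rpl13a*, *Rpl14*, *Rpl19*, *Rpl23*, *Rpl34*, and *Rps19*), against 2187 of 27025 promoters of all genes (8.09%).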

How the data were processed

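Poly(A)-selected RNA of 72 mouse libraries was measured. HISAT2, HTSeq, and GRCm38 are the aligner, counter, and genome named per the labels. What the authors deposited is a signal, the count of a gene after scaling by the DESeq2 size factor of its library, made separately for each kind of tissue and for the GFP experiment. The size factor of each library was estimated from its smallest value above 0 and refined by a fit to whole multiples. With it, 100% of values above 0 came out as whole reads (relative tolerance 0.001). The fit used the same values, and a relative tolerance is loose for high counts, so this is not an independent check. The annotation release, the strand setting, and the treatment of multiply mapped reads are not given in the sources used here. The KO line is given as a numbered stock of The Jackson Laboratory.

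The test was limma 3.58.1, applied with an intensity trend to the log2 of the normalized count plus 1 in R 4.3.3, over genes with a mean above 5, and *P* values were adjusted by Benjamini-Hochberg over all genes tested (16199 in gastrocnemius). A fold change on this scale understates that of low genes. The 34 gastrocnemius libraries were 1 model of 6 groups with site as covariate, and the GFP experiment and each tissue were fitted alone. Members and lists were chosen with earlier results of these data known. Named genes are paralog pairs and stalk proteins, for each comparison up to 5 called members of smallest *P* in each direction and class, each pseudogene called in WT versus KO with its parent, and the 3 highest and lowest members per kb, although not every one so selected is printed; other names were chosen after their values were seen. For 1 pseudogene, counted among the members, no values are reported here. Shares, sums, and the *Rpl3l* share were compared by exact permutation, 10 tests in all.

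Coordinates and sequences are those of GENCODE vM21 (GRCm38) for all 393 symbols, and each pseudogene was aligned to its parent's transcript. Alternatives were a pseudocount of 0.5, no filter, a mean above 50, edgeR 4.0.16 and DESeq2 1.42.0 on the recovered reads, no site term, the replicate number as a block, 1 site alone, the 2 groups alone, and each library left out. The code was tested on simulated data. Figures were drawn with matplotlib 3.10.9.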

Additional observations from a re-analysis of the deposited data

Results flagged for a closer look

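Of 230 groups of 4 to 10 libraries checked over 17 members, 11 held a library far from the others by Dixon's test, which chance alone gives for about 1 group in 20. In 40-week gastrocnemius, WT replicate 4 had a normalized count of 3.13 for *Rps15a-ps5* where the other 4 had 0, and 1173 for *Rps12* against 1048 to 1064. KO replicate 1 had 1343 for *Rps15a* against 1185 to 1226. In 10-week gastrocnemius, WT replicate 5 had 7201 for *Rpl3l* against 8286 to 8851. In liver, KO replicate 2 had 8065 for *Rps12* against 6444 to 6667.

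In lung, KO+AAV replicate 2 had 2507 for *Rps13-ps1* against 2210.5 to 2258, and KO replicate 4 had 21987 for *Rpl3* against 22789 to 22932. In white fat, KO replicate 2, the library with epididymis markers, had 8887 for *Rps13* against 6484 to 6829 and 4496 for *Rpl3l* against 2.16 to 11.1. KO+AAV replicate 2 had 8906 for *Rps15a* against 6246 to 6443 and 27652 for *Rpl3* against 17914 to 18874. The cause of none of these was tested.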

How the results depend on the processing

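Counts of called members are compared here, and no call reversed its direction under any setting tried. WT versus KO at 10 weeks (5 members) gave 1 with a mean above 50, 3 in Novogene libraries alone, and 9 with the 2 groups alone. WT versus KO+AAV at 10 weeks (7) gave 3 with a mean above 50, 13 with DESeq2, and 2 in Novogene libraries alone. At 40 weeks, WT versus KO (16) gave 8 with no site term and 5 with the 2 groups alone, and WT versus KO+AAV (16) gave 9 with no site term and 10 with the replicate block. Leaving out 1 library gave 12 to 23 and 10 to 24 members in these 2 comparisons. The age comparison gave, for WT (3 members), 5 with DESeq2 and 0 to 6 with 1 library left out; for KO (4), 2 with no filter and 1 to 4; and for KO+AAV (3), 1 with no filter, 7 with DESeq2, 26 with no site term, and 1 to 3. No site term gave 0 in WT. The replicate block, Novogene libraries alone, and the 2 groups alone gave 0 in all 3 age comparisons. The cause of these moves was not tested, except that 1 site or 2 groups alone leave fewer libraries in the fit. Comparisons of KO+AAV or KO+GFP with KO gave 0 members under every setting run. The replicate block moved the other counts by less than 1.5 times. Samples of the same number had residual correlations of -0.23 to 0.21 in 10-week and -0.11 to 0.37 in 40-week gastrocnemius. In white fat the 4 same-number pairs had -0.38 to 0.58, with a median of 0.44 against -0.22 for other numbers. The numbers were not taken to pair mice, although in white fat these values do not settle the question. Leaving out KO+AAV replicate 3 at 10 weeks, an alternative chosen after seeing the data, gave 7 members against WT and 0 against KO. Counts near the minimum of 5 carry the largest counting error, and *Rps15a-ps5* and *Rps15a-ps6* rest on few reads.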
